A study of Mus musculus with 57 samples.

Results

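The 10 genes described here encode Wnt ligands (Wnt4, Wnt5a, Wnt11), receptors (Fzd7, Lgr4, Lgr5), secreted inhibitors (Sfrp2, Dkk1) and the intracellular effectors of the pathway (Ctnnb1, Tcf7l2). They were taken by symbol from a table of 12087 genes measured by RNA sequencing in 57 single cells. All 10 had a row. The cells came from kidneys of mice carrying the transgene Tg(Crym-EGFP)82Gsat, in which Crym regulatory sequence within the transgene drives the green fluorescent protein EGFP. The mice were at postnatal day 4, of mixed strain background and of unknown sex, and carried no other labelled allele or treatment. All cells came from 1 pool of 2 kidneys, were sorted by fluorescence and carry the label renal vesicle, the earliest epithelial structure of the nephron. There is no second group and no replicate pool, so each SD below is a spread over cells and no p-value was computed. Levels are in RPKM. This unit counts reads relative to the length of the gene and to all mapped reads, so levels can be set side by side between genes.

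Wnt proteins are secreted signals that bind Frizzled receptors together with the co-receptors Lrp5 and Lrp6. In the canonical branch this binding protects beta-catenin from destruction, and beta-catenin then acts in the nucleus with DNA-binding factors of the TCF/LEF family. R-spondins, acting through Lgr receptors, keep Frizzled receptors at the cell surface, while Sfrp proteins bind Wnt ligands and Dkk proteins block the co-receptors. In the developing kidney a Wnt signal from the ureteric bud induces the mesenchyme, and Wnt4 made by the induced cells is needed for them to form the epithelial vesicle.

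Cells were sequenced to an estimated 0.474 to 2.25 M reads (median 1.47 M), and 2809 to 6502 genes were detected per cell. At the median depth 1 read was worth between 0.0970 RPKM for Wnt5a and 0.339 RPKM for Sfrp2, so RPKM 1, the level used here for detection, stood for a few reads or more. No pair of cells had identical values. Not every cell had nephron markers at a high level. Pax8, a transcription factor of the nephron lineage, was at RPKM 5 or more in 50 cells. Of the other 7 cells, 5 (cells 1, 25, 35, 46 and 58) had summed macrophage marker levels of 8736 to 19045 RPKM, against at most 180.4 RPKM in the 50 cells, and are called macrophage-like. Cells 13 and 53 had 5 and 6 of the 6 stromal markers with a row at RPKM 20 or more, with summed levels of 716 and 1479 RPKM. In the 50 cells with Pax8 the highest summed stromal level was 239.6 RPKM and the median 0.411 RPKM. The summed level of 7 nephron lineage markers was 3.74 to 10.4 RPKM in the macrophage-like cells and 40.7 and 11.3 RPKM in cells 13 and 53, against 229.7 to 2077 RPKM in the 50 cells. At RPKM 1 or more, the 50 cells held 50 of the cells with Lgr4, 48 with Sfrp2, 47 with Ctnnb1, 43 with Tcf7l2, 19 with Wnt4, 15 with Fzd7, 14 with Lgr5, 14 with Dkk1, 1 with Wnt11 and 0 with Wnt5a.

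At RPKM 1 the 10 genes split into 4 that nearly all cells carried and 6 that a minority carried. Lgr4, Sfrp2, Ctnnb1 and Tcf7l2 were detected in 50 to 56 of the 57 cells. Wnt4, Fzd7, Lgr5 and Dkk1 were detected in 14 to 19 cells, and Wnt11 and Wnt5a in 4 and 2. The split depends on the level asked for, since Lgr5 was found in 54.4% of cells with each cell rescaled to a sum of 1 M, and above RPKM 0 Lgr5 and Fzd7 were in 91.2% and 52.6% of cells. At RPKM 1 as deposited, 4 of the 10 genes were found in at least 29 cells, as were 28.0% of all 12087 genes. Detection in no more than 5 cells was seen for 2 of the 10 genes and for 18.6% of all genes. A cell carried between 2 and 7 of the 10 genes at RPKM 1 or more, with a median of 5, and 51 cells carried at least 4. At RPKM 5 or more the range was 1 to 7 and the median 4.

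**Figure D1:**
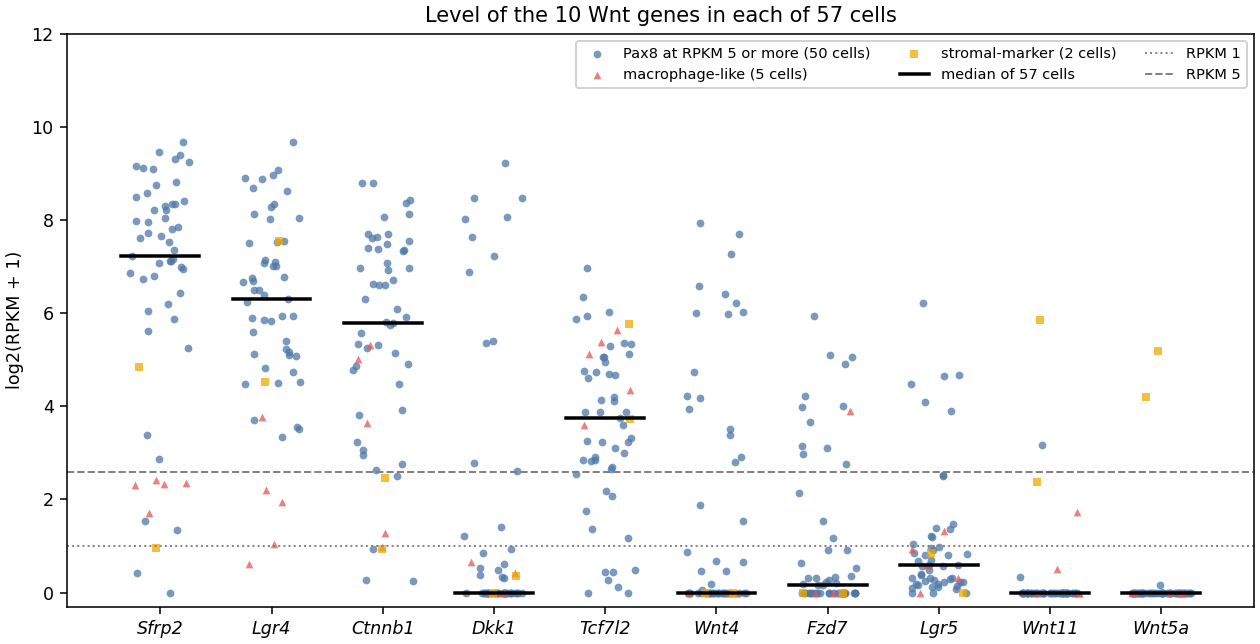
Each point is 1 of the 57 cells, the vertical axis is log2(RPKM + 1), and the genes run from the highest mean level at left to the lowest at right. Black bars are medians over 57 cells. Sfrp2, Lgr4, Ctnnb1 and Tcf7l2 are spread over the whole scale with medians of 149, 78.3, 54.1 and 12.4 RPKM, whereas Dkk1 and Wnt4 have a median of 0. Dkk1 has a separate set of high cells, while Wnt4 also has cells at intermediate levels.

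By mean level the order was Sfrp2, Lgr4, Ctnnb1, Dkk1, Tcf7l2, Wnt4, Fzd7, Lgr5, Wnt11 and Wnt5a. No neighbours in this order differed by more than their spread over cells. The gap between Sfrp2 and Lgr4, for instance, was 78.2 RPKM with SDs of 211 and 168 RPKM, and that between Tcf7l2 and Wnt4 was 0.634 RPKM. The order of means hides how the RNA was shared out, since the 5 highest cells held 76.5% of the summed RPKM of Dkk1 and 67.4% of that of Wnt4, but 27.5% of that of Sfrp2.

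Of the ligands, Wnt4 was the one found in a sizeable share of the cells. Wnt4 (chromosome 4, 136833550 to 136852694, build mm9 as for all gene positions here) was detected in 19 cells (33.3%, exact 95% confidence interval, CI, 21.4 to 47.1), all of them among the 50 cells with Pax8. Its lowest level was 0, its median 0 and its highest 244 RPKM, with a mean of 20.3 ± 49.3 RPKM (SD, n = 57 cells). Among the 19 detecting cells the lowest was 1.91, the median 25.4 and the highest 244 RPKM. The 2 cells with most Wnt4 were cell 17 (244 RPKM) and cell 23 (205 RPKM), and 31 cells had no read of it. The macrophage-like cells were all at 0.

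Wnt4 was found beside Wt1 and beside Sox9. Wt1 encodes a transcription factor that marks the proximal vesicle and later podocytes, and Sox9 one that marks its distal side. Both were taken as landmarks. Wnt4 was at RPKM 20 or more in 10 cells, of which 6 (cells 7, 9, 17, 22, 23 and 31) had Wt1 at that level and 2 (cells 6 and 32) had Sox9 at that level. Cells 42 and 50 had neither. The share of cells with Wt1 and with Sox9 gives 6.32 and 2.11 joint cells if the genes were independent, so the counts of 6 and 2 were close to those numbers. At RPKM 5 and RPKM 1 Wnt4 met Sox9 in 7 and 8 cells, where independence gives 4.77 and 5.67, and Wt1 in 12 and 16, where it gives 11.0 and 15.3. Across the 57 cells the rank correlation (Spearman rho) of Wnt4 was 0.03 with Wt1, 0.14 with Sox9 and 0.08 with Pax8, and over the 50 cells with Pax8 it was −0.11, 0.05 and −0.13 in the same order. These correlations are descriptions over cells of 1 pool sequenced together, and values this small are not read as a relation.

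Wnt5a and Wnt11, known mainly for signals that do not pass through beta-catenin, were confined at higher levels to few cells. Wnt5a (chromosome 14, 29318659 to 29338620) was detected in 2 cells (3.51%, CI 0.428 to 12.1). Cell 53 had 35.6 RPKM and cell 13 had 17.5 RPKM. These were the 2 cells with stromal markers, and Wnt5a was detected in 0 of the 50 cells with Pax8, which allows a share of up to 6.00%. Wnt11 (chromosome 7, 105983622 to 106003257) was detected in 4 cells (7.02%, CI 1.95 to 17.0). It stood at 56.8 RPKM in cell 53, 7.94 in cell 36, 4.22 in cell 13 and 2.30 in cell 46, which is macrophage-like. In the kidney Wnt11 is known from the tips of the ureteric bud. Both ligands thus met in cells 13 and 53, where Pax8 was at 0.744 and 0.437 RPKM, and a single cell with Pax8 at RPKM 5 or more carried either of them. Of the stromal markers, the growth factor receptor Pdgfra was at 237 and 365 RPKM and the collagen gene Col1a1 at 22.8 and 106 RPKM in cells 13 and 53.

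The receptors differed widely in how many cells carried them. Lgr4 (chromosome 2, 109757804 to 109854414), a receptor for R-spondins, was detected in 56 cells (98.2%, CI 90.6 to 99.96) at a mean of 141 ± 168 RPKM. Its lowest level was 0.537 RPKM in the macrophage-like cell 25, its median 78.3 and its highest 811 RPKM in cell 10. In the 50 cells with Pax8 it was never below 9.19 RPKM, whereas the 5 macrophage-like cells lay between 0.537 and 12.7 RPKM. Cells 13 and 53, also with low Pax8, had 186 and 22.0 RPKM of Lgr4. Lgr4 and Pax8 had a rank correlation of 0.34 over 57 cells and 0.14 over the 50 cells. Without the 5 macrophage-like cells alone it was 0.15, so most of the relation rested on those 5.

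Lgr5 (chromosome 10, 114887370 to 115024836), the related receptor known as a stem cell marker of the intestine and as a target of the canonical pathway, was detected in 15 cells (26.3%, CI 15.5 to 39.7) at a mean of 3.63 ± 10.9 RPKM. A low level was common, with 37 cells above 0 and below RPKM 1, and 1 macrophage-like cell reached 1.51 RPKM, so counts at RPKM 5 are the safer ones for this gene. At RPKM 5 or more it was found in 6 cells. These were cell 23 with 72.8 RPKM, cells 6, 20 and 52 with 24.4, 24.1 and 21.2 RPKM, and cells 3 and 41 with 15.9 and 13.8 RPKM. All 6 also had Lgr4 at RPKM 5 or more, as did 53 of the 57 cells.

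The Lgr5 cells were mostly Sox9 cells. Of the 6 cells with Lgr5 at RPKM 5 or more, 5 had Sox9 at that level, where independence gives 1.68, and cell 3, with Sox9 at 0.162 RPKM, did not. Wt1 at RPKM 5 or more was found in 2 of the 6 cells, where independence gives 3.89. Across the 57 cells Lgr5 had a rank correlation of 0.35 with Sox9 and −0.33 with Wt1, and of 0.39 and −0.34 over the 50 cells with Pax8. In the 28 cells with more detected genes the values were 0.36 with Sox9 and −0.61 with Wt1. The joint counts rest on 6 cells.

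Fzd7 (chromosome 1, 59538991 to 59543799), a Frizzled receptor, was detected in 16 cells (28.1%, CI 17.0 to 41.5) at a mean of 4.67 ± 10.9 RPKM. Its median was 0.124 RPKM and its highest level 59.8 RPKM in cell 24, followed by cells 27, 28 and 39 with 33.1, 32.2 and 29.0 RPKM. The macrophage-like cell 46 had 13.8 RPKM of Fzd7, and the other macrophage-like cells were below RPKM 1. Fzd7 met Wt1 more often than independence gives at RPKM 5 but not at RPKM 1. Of the 13 cells with Fzd7 at RPKM 5 or more, 11 had Wt1 at that level, where independence gives 8.44, and 2 had Sox9, where independence gives 3.65. At RPKM 1 it met Wt1 in 13 cells and Sox9 in 4, where independence gives 12.9 and 4.77. Its rank correlation with Wt1 was 0.20 over 57 cells and 0.13 over the 50 cells with Pax8, too weak to be read as a relation. In the 28 cells with more detected genes it was 0.40, so the value depends on the cells taken. These 4 cells, 24, 27, 28 and 39, had 114, 341, 262 and 224 RPKM of Wt1. At RPKM 5 or more Fzd7 met Lgr5 in 0 cells and Dkk1 in 0 cells, where independence gives 1.37 and 2.74. A count of 0 in 57 cells allows a share of up to 5.26%. Fzd7 followed the number of detected genes per cell with a rank correlation of 0.32, the highest of the 10 genes, and its part in these counts was not tested.

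Both secreted inhibitors had positive rank correlations with Sox9, Dkk1 at 0.60 and Sfrp2 at 0.44 over 57 cells. That of Sfrp2 was above the 0.35 of Lgr5 over 57 cells but not over the 50 cells with Pax8, at 0.38 and 0.39. The stretch of 250 bases before the RefSeq start of each gene (assembly GRCm38.p6) is shown for both because all 10 high Dkk1 cells and 8 of the 10 highest Sfrp2 cells had Sox9 at RPKM 20 or more, and capitals mark CTTTG or its reverse complement CAAAG, the core of the motif that TCF/LEF factors bind. The Dkk1 stretch lies at chr19:30549497-30549746 on the minus strand and the Sfrp2 stretch at chr3:83766071-83766320 on the plus strand.
Dkk1: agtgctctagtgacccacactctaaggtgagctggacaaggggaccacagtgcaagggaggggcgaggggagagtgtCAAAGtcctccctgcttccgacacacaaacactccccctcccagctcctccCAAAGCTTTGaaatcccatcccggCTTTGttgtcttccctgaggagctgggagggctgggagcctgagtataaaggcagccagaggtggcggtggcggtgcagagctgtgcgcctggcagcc
Sfrp2: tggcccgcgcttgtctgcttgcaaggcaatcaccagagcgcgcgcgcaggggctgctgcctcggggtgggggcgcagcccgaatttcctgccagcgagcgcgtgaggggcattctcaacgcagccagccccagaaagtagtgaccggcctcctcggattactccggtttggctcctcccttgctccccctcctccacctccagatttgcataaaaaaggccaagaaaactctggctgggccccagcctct
The Dkk1 stretch held 4 matches, at 173, 122, 117 and 98 bases before the start, and the Sfrp2 stretch held 0. Of the 32851 stretches of the same length in the RefSeq table, 48.6% held at least 1 match on either strand and 0.773% held 4 or more. An entry was found for 8 of the 10 genes. Of these, Wnt11, Fzd7, Tcf7l2 and Dkk1 held a match at 1 or more of their listed starts, and Wnt4, Lgr4, Ctnnb1 and Sfrp2 held none. ACAAT, 1 form of the motif that SOX factors bind, or its reverse complement ATTGT occurred in neither of the printed stretches and in 27.7% of all stretches. Other forms of the SOX motif, which can also hold CAAAG, were not searched for. These counts therefore do not decide whether a printed stretch holds a SOX motif. A match is a run of letters and says nothing of binding in these cells.

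Sfrp2 (chromosome 3, 83570243 to 83578236), which binds Wnt ligands outside the cell, was detected in 54 cells (94.7%, CI 85.4 to 98.9). It had the highest mean of the 10 genes, 219 ± 211 RPKM, with a lowest level of 0 in cell 34, a median of 149 and a highest level of 813 RPKM in cell 56. The macrophage-like cells lay between 2.26 and 4.33 RPKM, so low levels of this gene also occurred outside the nephron lineage. RPKM 5 or more was reached in 47 cells, 46 of them with Pax8. The remaining one was cell 53, with stromal markers, at 27.6 RPKM. Levels of 400 RPKM or more, a line drawn after the values were seen, were found in 10 cells, of which 8 had Sox9 at RPKM 20 or more and 2 (cells 23 and 41) had Wt1 at RPKM 20 or more. At RPKM 20 all 12 Sox9 cells had Sfrp2, where independence gives 9.47. The rank correlation of Sfrp2 was 0.44 with Sox9 and −0.13 with Wt1 over 57 cells, and 0.38 and −0.33 over the 50 cells with Pax8. In the 28 cells with more detected genes the value with Sox9 was 0.23.

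At the other end, 6 cells with Pax8 had Sfrp2 below RPKM 20, and all 6 had Wt1 above that level, as did 35 of the 50 cells. Independence gives 4.20 of the 6. Over all 57 cells there was no excess, with Wt1 in 7 of the 12 cells with low Sfrp2, where independence gives 7.58. Their Wt1 was 1382 RPKM in cell 2, 1019.5 in cell 10, 865 in cell 34, 559.9 in cell 7, 82.8 in cell 29 and 32.4 in cell 57. These cells include the 3 highest for Wt1 of all 57. Of the 6 cells with Lgr4 at 400 RPKM or more, 4 (cells 2, 10, 34 and 57) belonged to this set, and cells 3 and 50 did not. Over the 50 cells with Pax8, however, the rank correlation of Lgr4 was −0.06 with Sfrp2 and −0.10 with Wt1, so the ranks over all 50 cells did not show this pattern.

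Dkk1 (chromosome 19, 30620374 to 30623986), which blocks the co-receptors Lrp5 and Lrp6, was detected in 14 cells (24.6%, CI 14.1 to 37.8), all with Pax8. Its median over 57 cells was 0, its highest level 597 RPKM and its mean 41.9 ± 113 RPKM, while the macrophage-like cells were at or below 0.564 RPKM. The level was nearly all or none. It was 597 RPKM in cell 20, 353 in cell 52, 352 in cell 15, 265 in cell 40, 259.7 in cell 56, 196 in cell 45, 149 in cell 8, 116 in cell 41, 41.4 in cell 32 and 40.2 in cell 6. The next cells were cell 11 with 5.88 RPKM and cell 23 with 5.09 RPKM.

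Every one of the 10 cells with Dkk1 at RPKM 20 or more also had Sox9 at that level, where independence gives 2.11 cells. Their Sox9 ran between 21.7 RPKM in cell 32 and 355 RPKM in cell 52. Of the 12 cells with Sox9 at RPKM 20 or more, cell 33 (Sox9 33.1, Dkk1 0 RPKM) and cell 36 (Sox9 51.9, Dkk1 0.264 RPKM) were the exceptions. At RPKM 5 the genes met in 11 cells, where independence gives 3.37, and at RPKM 1 in 11, where it gives 4.18. The rank correlation was 0.60 over 57 cells and 0.67 over the 50 cells with Pax8. Among 8151 genes detected in at least 10 cells, Sox9 was the second nearest to Dkk1 by this measure, between Moxd1 (0.61) and the transcription factor gene Sim1 (0.58). Dkk1 hardly followed the number of detected genes (rho 0.05) or the estimated depth (rho 0.08).

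Dkk1 and Wt1 went the other way. Of the 10 high Dkk1 cells, 9 had Wt1 below RPKM 5, and 5 of these had it below RPKM 1. Only cell 41, with 116 RPKM of Dkk1 and 31.4 RPKM of Wt1, had both at RPKM 20, where independence gives 6.32 cells. The rank correlation was −0.36 over 57 cells and −0.44 over the 50 cells with Pax8. For comparison, Sox9 and Wt1 themselves met at RPKM 20 in 2 cells, where independence gives 7.58, with a rank correlation of −0.36. At RPKM 1 the gap for Dkk1 and Wt1 was smaller, at 9 cells where independence gives 11.3.

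**Figure D2:**
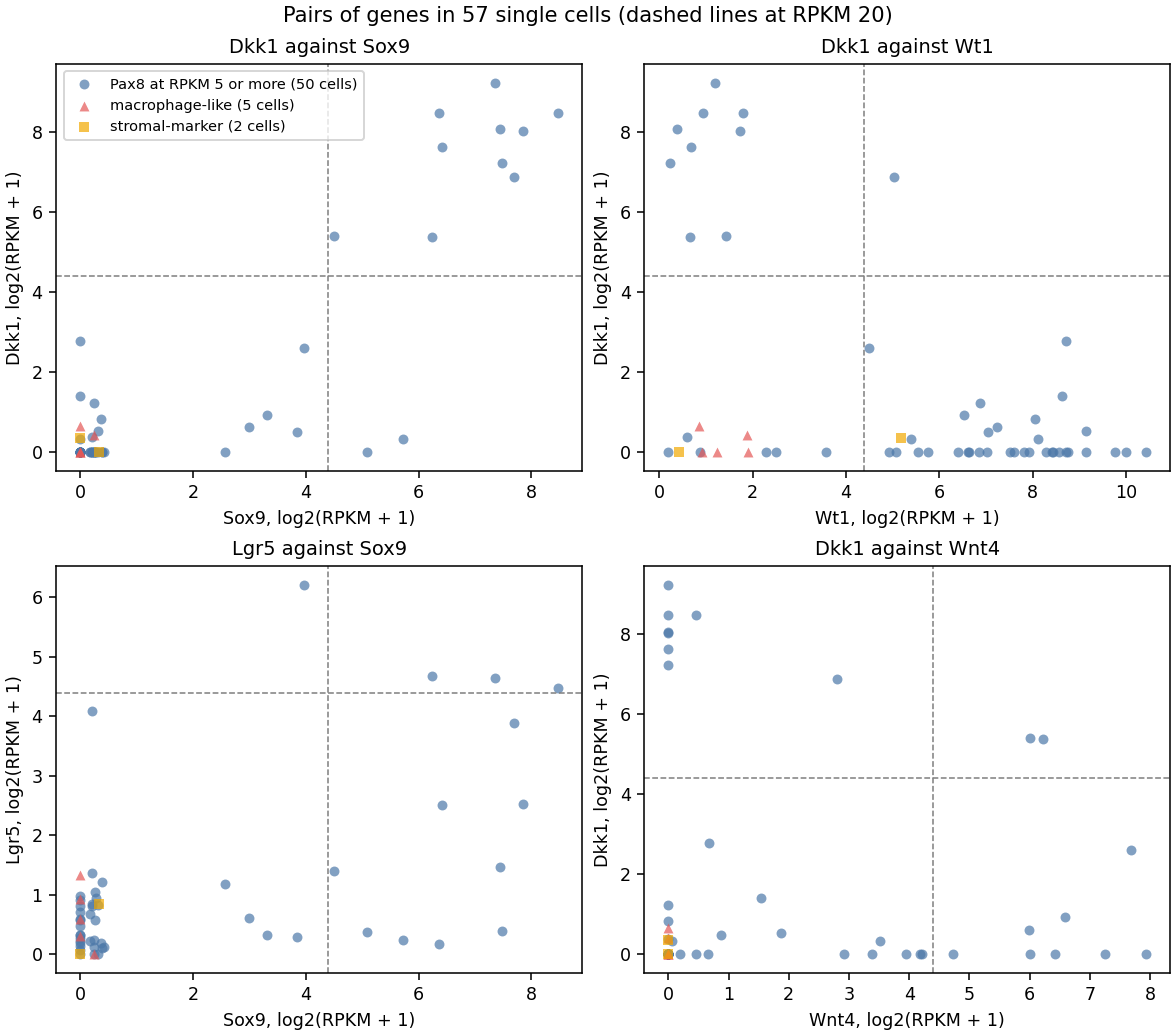
Each panel sets the log2(RPKM + 1) of a pair of genes against each other in the 57 cells, with dashed lines at RPKM 20. In the panel of Dkk1 against Sox9 all 10 cells above the Dkk1 line lie right of the Sox9 line, in that of Dkk1 against Wt1 a single cell lies in the upper right corner, and in that of Dkk1 against Wnt4 there are 2.

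Lgr5, Dkk1 and Sfrp2 were set together here because each met Sox9, so their meetings with each other are not separate evidence. Lgr5 and Dkk1 were both at RPKM 5 or more in 5 cells (cells 6, 20, 23, 41 and 52), where independence gives 1.26, and at RPKM 20 in 3 cells, where it gives 0.702. Sfrp2 was at RPKM 20 or more in all 10 high Dkk1 cells, where independence gives 7.89, and the lowest of these 10 had 162 RPKM of Sfrp2. That count was fixed by earlier ones, since all 10 were among the 12 Sox9 cells, which all had Sfrp2 at RPKM 20. Wnt4 and Dkk1 met at RPKM 20 in 2 cells (6 and 32), close to the 1.75 of independence. These 2 cells had the lowest Dkk1 of the 10, and 6 of the 10 had no read of Wnt4. The same 2 cells had 394 and 324 RPKM of Lgr4.

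**Figure D3:**
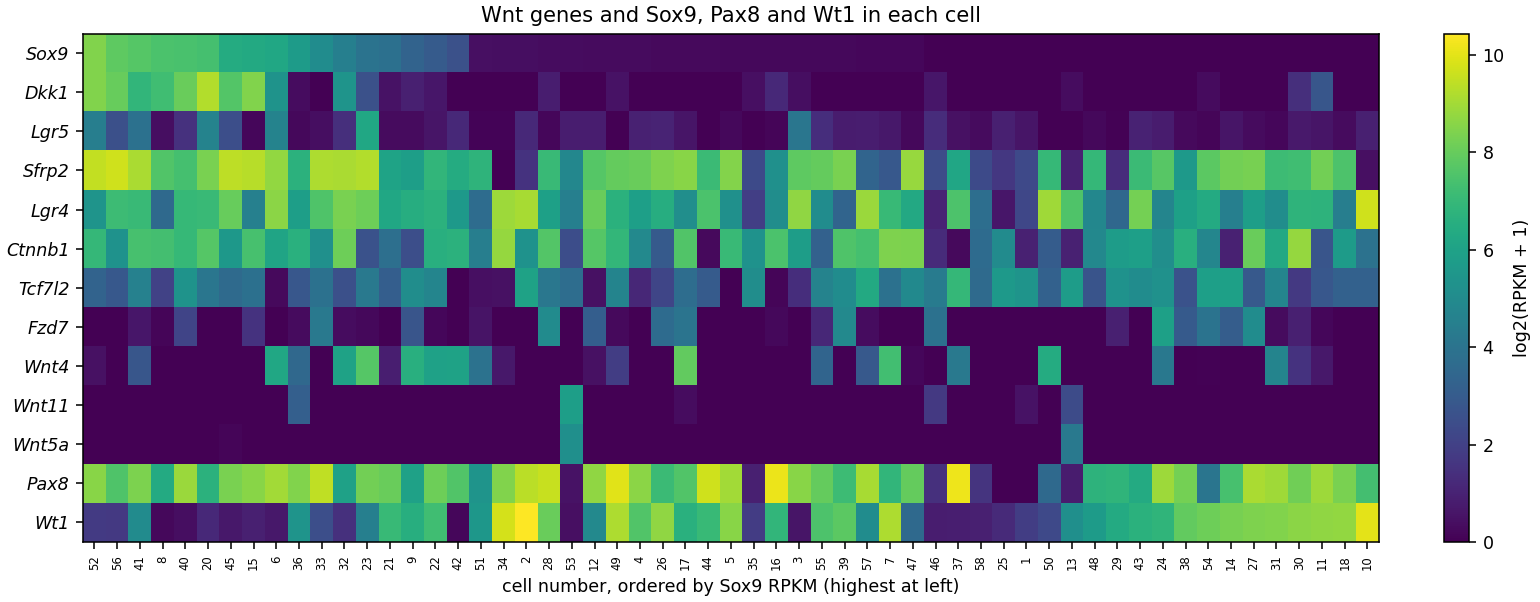
Colour gives log2(RPKM + 1) of the 10 Wnt genes and of Sox9, Pax8 and Wt1, and columns are the 57 cells ordered by their Sox9 level, highest at left. The Dkk1 row is bright over the cells at the left and dark over nearly all others, the Wt1 row is mostly dark there, and Wnt4 is scattered over the whole width.

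The intracellular effectors were found in nearly all cells. Ctnnb1 (chromosome 9, 120842518 to 120869625), which encodes beta-catenin, also a part of cell junctions, was detected in 52 cells (91.2%, CI 80.7 to 97.1) at a mean of 98.9 ± 110.0 RPKM. Its lowest level was 0.192, its median 54.1 and its highest 441 RPKM in cell 34. At RPKM 20 or more it was found in all 12 Sox9 cells, where independence gives 8.63, and in 26 Wt1 cells, where it gives 25.9. Its rank correlation with Sox9 was 0.30 over 57 cells and 0.19 over the 50 cells with Pax8.

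Tcf7l2 (chromosome 19, 55816300 to 56008145), a DNA-binding partner of beta-catenin, was detected in 50 cells (87.7%, CI 76.3 to 94.9) at a mean of 20.9 ± 23.4 RPKM. Its median was 12.4 and its highest level 124 RPKM in cell 37. Unlike Lgr4 and Sfrp2, it was high in the macrophage-like cells, with 49.0, 40.7, 33.9, 19.2 and 11.2 RPKM, all above the median of 9.99 RPKM in the cells with Pax8. At RPKM 20 it met Sox9 in 2 cells, where independence gives 4.42, and Wt1 in 15, where it gives 13.3. At RPKM 5 and RPKM 1 it met Sox9 in 13 and 15 cells, close to the 12.4 and 14.9 of independence. Ctnnb1 and Tcf7l2 met at RPKM 20 in 15 cells, close to the 15.1 of independence. Their rank correlation was −0.27 over all cells and shrank to −0.19 over the 50 cells with Pax8.

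**Figure D4:**
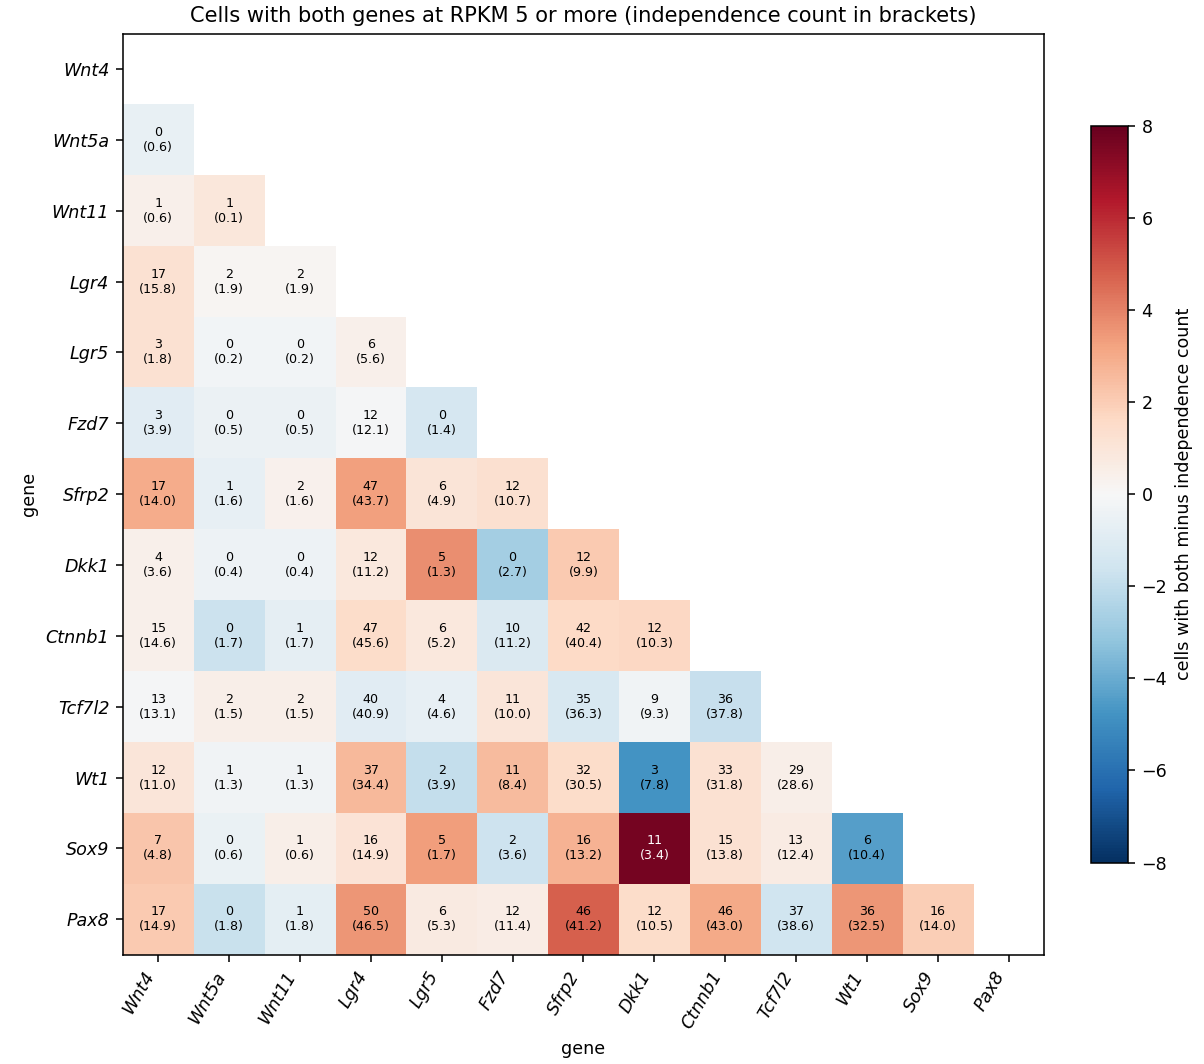
Each square gives the number of the 57 cells with both genes at RPKM 5 or more, with the number under independence in brackets, and its colour is the difference. The strongest excess is that of Dkk1 with Sox9 (11 cells where independence gives 3.37) and the strongest lack is that of Dkk1 with Wt1 (3 cells where it gives 7.79).

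In all, 45 pairs among the 10 genes and 30 pairs with Wt1, Sox9 and Pax8 were counted. The joint counts of the 4 widely found genes are nearly fixed by their own shares, so for them the counts at RPKM 1 carry little. Lgr4 with Lgr5 had a rank correlation of 0.27 over 57 cells and 0.36 over the 50 cells with Pax8.

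The authors' deposited table of 787 genes, 6.51% of all genes here, sets proximal against distal cells with a signed fold, negative where the distal class was higher, over 28 cells. The sources used here do not say which cell belongs to which class, and none of the 7 cells with low Pax8 is among the 28. Of the 10 genes, 4 had a row in the authors' deposited table, and all 4 were higher in the distal class; 2.90% of all 12087 genes and 44.6% of the 787 were. The fold in the authors' deposited table was −48.7 for Dkk1, −7.84 for Lgr5, −2.23 for Lgr4 and −2.21 for Sfrp2. For Lgr4 the 28 cells leave out most of its highest cells. Of the 6 with 400 RPKM or more, cells 2, 3, 10, 34 and 57 are not among them. Over all 57 cells Lgr4 had a rank correlation of 0.08 with Wt1 and 0.23 with Sox9. For the landmarks the authors' deposited table gives −131 for Sox9 and 96.1 for Wt1. Wnt4, Wnt5a, Wnt11, Fzd7, Ctnnb1 and Tcf7l2 had no row there. The table was made from cells of the same pool, so it is not separate evidence for the pairings above.

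For each gene detected in at least 10 cells, the 3 genes with the most similar pattern over the 57 cells were listed by rank correlation. For Sfrp2 these were Jag1 (0.68), Lhx1 (0.65) and Epha4 (0.65), falling to 0.56, 0.50 and 0.57 over the 50 cells with Pax8. In the 28 cells with more detected genes Jag1 was at 0.33 and Lhx1 at 0.34. Jag1 is a Notch ligand, Lhx1 a transcription factor of the vesicle and Epha4 an ephrin receptor. For Dkk1, Moxd1 and Sim1 stood at 0.64 and 0.61 over the 50 cells. For Lgr4 they were Fnbp1l (0.52), Frem2 (0.51) and Impad1 (0.50), and for Lgr5 Etl4 (0.53), Crip1 (0.47) and Enc1 (0.47). For Wnt4 they were Atp5g1 (0.54), Rhbdd3 (0.48) and Cnih4 (0.47). For Fzd7 they were 2700060E02Rik (0.57), Suv39h1 (0.51) and Ccdc66 (0.49). For Ctnnb1 the nearest was Arhgap32 (0.53), before Ppp1cb (0.50) and Usp34 (0.49), and for Tcf7l2 Tbc1d15 (0.44), before Rab3gap1 (0.41) and Tubb2a (0.41). Each was picked as the highest of 8151 genes compared, so its size is a description alone.

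The rest of the pathway was taken from a list of 114 Wnt genes in 9 roles, of which 73 had a row. The 73 genes were detected in a median of 16 cells (28.1%), as were all 12087 genes. Among them 22 were in at least 29 cells, and 15 were in at most 5. Ligands were the sparsest role. Of the 6 ligands with a row none was in 29 cells, and beside Wnt4, Wnt5a and Wnt11 these were Wnt5b in 5 cells, Wnt8b in 3 and Wnt16 in 3. Wls, which carries Wnt proteins to the surface, was detected in 34 cells at 18.0 ± 28.5 RPKM and met Wnt4 in 10 cells, where independence gives 11.3.

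The 12 receptors and co-receptors with a row were detected in a median of 16 cells, as was Fzd7, and 3 of them were in at least 29 cells. Fzd3 was detected in 44 cells at 38.7 ± 44.8 RPKM, the co-receptor Lrp6 in 38 at 8.06 ± 10.7 RPKM, the receptor Ryk in 32 and Lrp5 in 3. Each of the 19 cells with Wnt4 carried Fzd3 or Lrp6, but so did 52 of all 57 cells, and independence gives 17.3. Dkk1 met its target Lrp6 in 12 of 14 cells, where independence gives 9.33, and Kremen1, which acts with Dkk proteins on the co-receptors, in 3, where it gives 3.19. Rspo1, a ligand of the Lgr receptors, was detected in 15 cells. All 15 had Lgr4, where independence gives 14.7, and 5 had Lgr5, where it gives 3.95. At RPKM 5 Rspo1 met Lgr5 in 1 cell, where it gives 1.05. Znrf3, a ligase that removes Frizzled receptors, was detected in 45 cells at 35.0 ± 31.7 RPKM.

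The other inhibitors were detected in 13 cells or fewer: Kremen1 in 13, Dkk2 in 11, Sfrp1 in 9 and Frzb in 3. Dkk2 is a relative of Dkk1, but met it in 1 cell, where independence gives 2.70. All 6 cells with Dkk2 at RPKM 5 or more had Wt1 at that level, where independence gives 3.89, and 2 had Sox9, where it gives 1.68. In the authors' deposited table the fold of Dkk2 was 3.93, toward the proximal class. The pairs with genes outside the 10 were chosen in part after their values were seen.

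Downstream, the kinases Csnk1a1 and Gsk3b were detected in 57 and 56 cells and Tnks2, which acts on axin, in 44, while Dvl1 was found in 4. Among nuclear factors Tcf7l1 was in 35 cells, Ctbp2 in 31, Tle4 in 27 and Tle2 in 4. Genes used as readouts of the canonical branch were detected in very different numbers of cells. The cyclin gene Ccnd1 was in 55 cells at 426 ± 329 RPKM, Pla2g7 in 32, with its highest level, 1050.4 RPKM, in the macrophage-like cell 1, and Axin2, a widely used target, in 3 cells with a highest level of 28.3 RPKM in cell 36. Lef1, both a nuclear factor and a target, was at RPKM 20 or more in 5 cells, and 4 of these had Dkk1 at that level, where independence gives 0.877. At RPKM 1 Lef1 met Dkk1 in 8 cells, where it gives 5.40. With Sox9, Lef1 met at RPKM 20 in 4 cells, where it gives 1.05. Axin2 met Dkk1 at RPKM 1 in 1 cell, where it gives 0.737. Myc and Dkk1 met at RPKM 20 in 5 cells, where independence gives 1.58, and at RPKM 1 in 7, where it gives 4.18. In the authors' deposited table the fold of Myc was −10.3, toward the distal class. Of the planar polarity genes Celsr2 was in 37 cells, Prickle3 in 33, Celsr1 in 32 and Vangl2 in 4, and the fold of Celsr2 in the authors' deposited table was 6.59. Of the 73 genes 8 had a row there, 5 higher in the distal and 3 in the proximal class, the third proximal gene being Ptk7 with 4.62.

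**Figure D5:**
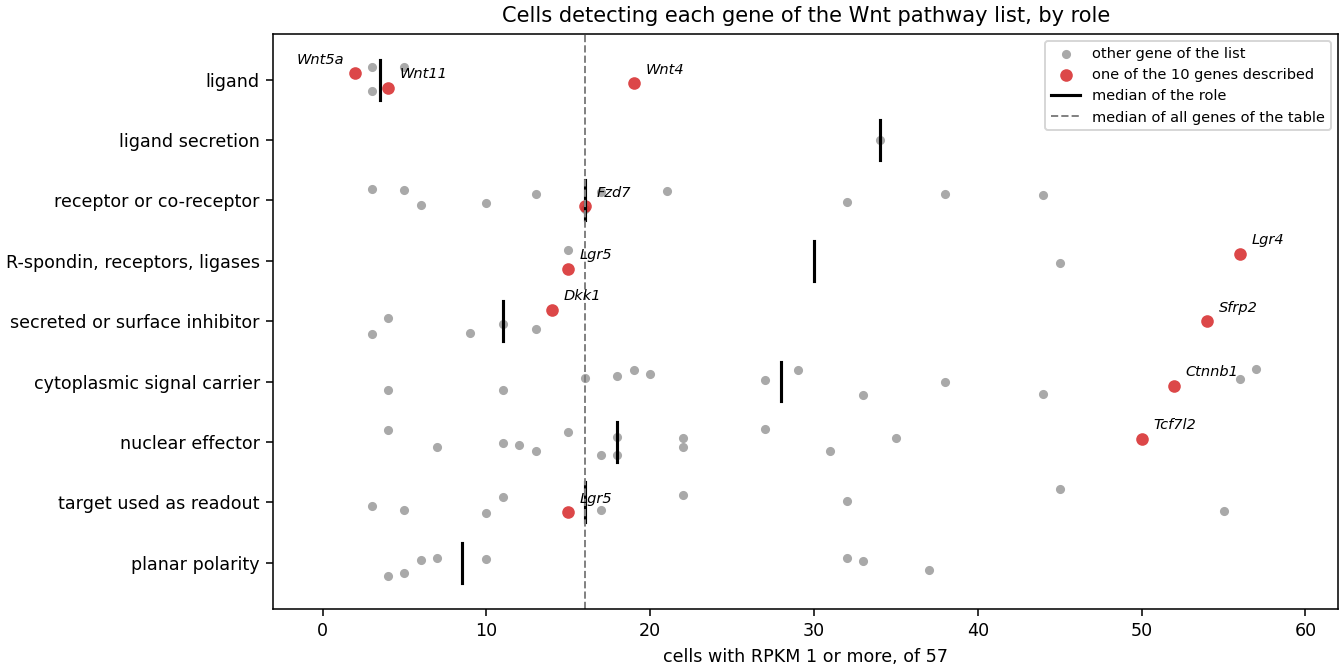
Each point is a gene of the Wnt list, placed by the number of the 57 cells with RPKM 1 or more, in rows by role; genes with 2 roles appear in both rows. Black bars are the median of the role and the dashed line is the median of all genes, 16 cells. Ligands have a median of 3.5 cells, whereas Lgr4, Sfrp2, Ctnnb1 and Tcf7l2 lie at the right with 50 to 56 cells.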

How the data were processed

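Capture of single cells used the Fluidigm C1 system, and their cDNA was made with the SMARTer kit and turned into libraries with Nextera XT, per the labels' protocols; this keeps no strand and no molecular identifiers. The authors deposited RPKM values per gene and cell, not logged, per the file headers, with a filter that leaves genes above RPKM 3 in at least 2 cells. A smaller table of the authors holds RPKM and a signed fold, treated as a deposited score; the sources used here do not state its formula. TopHat 1.4.1, DESeq and the build mm9 appear in the submitters' processing notes, with no role. Depth was estimated from the RPKM worth of 1 read in 1015 single-transcript genes.

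Detection was RPKM 1 or more, with 5 and 20 beside it. Shares carry Clopper-Pearson 95% intervals and a count of 0 a limit of 3 cells, both for counting error only; an independence count is the product of both genes' numbers of cells over 57. Spearman rho carries no p-value. Python 3.11.15 with numpy 2.4.6, pandas 2.3.3, scipy 1.17.1 and matplotlib 3.10.9 was used. The ranking of similar genes was run on shuffled values with genes planted to follow Sfrp2 closely. That run does not test weaker correlations such as those listed, or genes with many cells at 0. The genes, lists and named-gene rule (in each role of the Wnt list the 3 genes in most cells and the 1 in fewest, and 3 similar genes per member) were chosen with earlier results of these data known. Of the Wnt list, Lef1, Myc and Ptk7 were named outside this rule. Genes with near-identical copies or overlapping antisense partners were not separated.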

Additional observations from a re-analysis of the deposited data

How the results depend on the processing

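Of 379 values recomputed under other settings, 289 stayed close, 86 moved and 4 changed direction. Close meant within 1 SD over cells for a mean, within the counting interval for a share or joint count, within 0.15 for a correlation and within 1.5 times for a count of genes. For means this limit is loose, so their part of the tally says little about stability. The mean of Wnt5a, with an SD of 5.22 RPKM, counted as close although it fell from 0.933 to 0.00231 RPKM over the 50 cells with Pax8. Direction was followed only for joint counts at least 1 cell from independence and for correlations of at least 0.2 in size. Of the Wnt list, 22 genes were in at least 29 cells, 12 at RPKM 5 and 8 at RPKM 20. Dkk1 and Sox9 met in 11 cells, and in 20 above RPKM 0, where independence gives 16.2. Their correlation lay between 0.60 and 0.92 in every setting run, with Pearson r of log2 values at 0.88, 0.83 with a pseudocount of 0.1 and 0.92 with 10. Dkk1 and Wt1 met in 9 cells, in 25 above RPKM 0 (independence 25), 3 at RPKM 5, 1 at RPKM 20 and 17 after rescaling each cell to a sum of 1 M (independence 17.7); their correlation stayed between −0.50 and −0.36. That rescaling changes the unit and raised the mean of each of the 10 genes. Sfrp2 went from 219 to 502 and Wnt4 from 20.3 to 46.0. Rescaled means are therefore not comparable with those in RPKM, and a threshold of 1 asked for less, on average over cells. The correlation of Sfrp2 with Wt1 ran from −0.33 to 0.07 over the settings. Of joint counts at least 1 cell from independence at RPKM 1, 4 changed side. Lgr5 with Dkk1 did so above RPKM 0 (22 cells, independence 22.8) and Wnt4 with Sox9 at RPKM 20 (2, independence 2.11). Fzd7 with Dkk1 did so above RPKM 0 (16, independence 13.2) and rescaled (7, independence 6.33). Counts nearer to independence also crossed it and are not among the 4, such as Tcf7l2 with Sox9 at RPKM 20 (2, independence 4.42). The cause was not tested, but above RPKM 0 a few reads decide detection. Leaving out the macrophage-like cells was chosen after seeing the data. No paired analysis was possible because the cells form 1 group.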
